A study of Mus musculus with 71 samples.

Results

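The cortical excitatory neuron genes are 32 genes that mark the glutamatergic projection neurons of the cerebral cortex, chosen by gene symbol out of the 37681 genes listed in the deposited tables. By the layers in which they are best known, 17 are broadly cortical, 5 belong to upper layers and 10 to deep layers. No measured value served as a rule for this choice, but earlier results of these data were known when it was made. They were followed by RNA-seq, where reads on a gene stand for its RNA, in micro-punches of the prefrontal cortex (PFC), the nucleus accumbens (NAc) and the ventral tegmental area (VTA). Adult wild type C57BL/6 mice, single housed and carrying a jugular catheter, had self-administered cocaine or saline and were killed after 1 or 28 days of abstinence. The 3 regions, 2 time points and 2 treatments make 12 groups of 6 libraries, except saline VTA at 28 days with 5, for 71 libraries in all. The control mice went through the same food training, surgery and sessions with saline in place of cocaine, and no mouse carried an engineered allele. In a punch of bulk tissue, fewer cells of a type and less RNA per cell cannot be told apart. The labels do not say whether 1 library is 1 animal, so the p-values measure the spread between these libraries.

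Cortical projection neurons are born in order, deep layers before upper layers, and each layer keeps its own transcription factors and its own targets. Upper-layer cells project mostly within the cortex, layer 5 cells to the striatum, midbrain and spinal cord, and layer 6 cells to the thalamus, while subplate-derived layer 6b cells form the lowest sheet. The projection from PFC to NAc is glutamatergic and is a classic route in work on drug seeking. The NAc itself is built mainly of GABAergic spiny neurons and the VTA of dopamine, GABA and some glutamate neurons, so cortical genes measured there can also come from cortex caught at the edge of a punch, or from local cells that use the same gene.

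The levels of the 32 genes in the PFC spanned a wide range. In the saline libraries at 1 day, where values were deposited as RPKM (reads corrected for how long the gene is and how deep the library is, a scale on which genes can be compared), Slc17a7 stood first with 413 RPKM ± 37.7 (SD, n = 6). This gene, on chromosome 7 from 52419291 to 52431508 in mm9, encodes VGLUT1, the transporter that loads glutamate into the synaptic vesicles of cortical neurons. Pcp4, a calmodulin regulator of deep-layer neurons, followed with 227 RPKM ± 37.3. Dkk3, a secreted glycoprotein, had 192 RPKM ± 9.06, so that the ranges of Pcp4 (164 to 276) and Dkk3 (180 to 204) overlapped and their order is not fixed by these libraries. Lmo4 at 162 RPKM ± 14.3 and Mef2c at 130 RPKM ± 19.7, a LIM-only cofactor and a MADS-box transcription factor, came next and also overlapped. The proneural factors lay far apart from each other, with Neurod6 at 56.8 RPKM ± 5.19, Neurod2 at 15 ± 0.948 and Neurod1 at 1.62 ± 0.278. Among the deep-layer factors, Tbr1 had 41.9 RPKM ± 4.80 and Fezf2 18 ± 2.83, and their ranges did not meet. The upper-layer genes ran from Rasgrf2 at 35.3 RPKM ± 3.88, a Ras and Rac exchange factor, through Calb1, Cux1 and Cux2 at 22.2, 8.31 and 7.68, to the nuclear receptor Rorb at 1.99 ± 0.271. The lowest level was that of Otx1, a layer 5 homeobox gene, at 1.11 RPKM ± 0.151. Slc17a7, Neurod6, Tbr1 and Fezf2, the defining genes of the set, were present in all 24 PFC libraries, as the label of the tissue requires.

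Promoters are shown for 4 genes the results turn on, Slc17a7 as the glutamatergic identity gene, Neurod2 as a proneural factor, Rasgrf2 as the upper-layer gene and Tle4 as the deep-layer gene with the smallest p in the PFC at 28 days. They come from RefSeq on GRCm38.p6 and run from 250 bases before to 50 bases after the gene start, 5′ to 3′ on the gene's strand. The regions are chr7:45163671-45163970 on the plus strand, and chr11:98329596-98329895, chr13:92131779-92132078 and chr19:14598134-14598433 on the minus strand. Capitals mark CAGATG, an E-box of the kind that NeuroD factors bind.
Slc17a7: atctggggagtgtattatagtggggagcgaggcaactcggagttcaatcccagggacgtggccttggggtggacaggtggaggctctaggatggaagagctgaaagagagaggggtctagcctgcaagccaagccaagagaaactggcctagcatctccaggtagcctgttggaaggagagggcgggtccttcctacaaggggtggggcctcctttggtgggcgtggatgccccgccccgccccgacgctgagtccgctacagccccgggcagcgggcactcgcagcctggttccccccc
Neurod2: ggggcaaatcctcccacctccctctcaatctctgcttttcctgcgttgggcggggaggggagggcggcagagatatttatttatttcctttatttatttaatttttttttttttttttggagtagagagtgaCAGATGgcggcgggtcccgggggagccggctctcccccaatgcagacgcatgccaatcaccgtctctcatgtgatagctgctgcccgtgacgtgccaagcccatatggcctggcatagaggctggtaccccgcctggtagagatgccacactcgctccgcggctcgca
Rasgrf2: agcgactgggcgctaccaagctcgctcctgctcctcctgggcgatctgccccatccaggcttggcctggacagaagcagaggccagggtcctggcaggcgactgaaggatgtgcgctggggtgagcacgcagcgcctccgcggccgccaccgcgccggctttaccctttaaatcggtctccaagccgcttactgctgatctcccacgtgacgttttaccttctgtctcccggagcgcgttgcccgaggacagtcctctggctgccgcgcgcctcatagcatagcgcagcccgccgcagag
Tle4: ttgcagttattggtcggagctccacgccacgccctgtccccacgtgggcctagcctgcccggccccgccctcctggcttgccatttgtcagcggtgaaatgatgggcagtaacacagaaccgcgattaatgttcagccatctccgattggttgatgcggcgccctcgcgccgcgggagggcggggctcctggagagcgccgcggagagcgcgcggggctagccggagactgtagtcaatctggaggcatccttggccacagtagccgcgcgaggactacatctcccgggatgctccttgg
Of the 4 promoters, Neurod2 alone holds the letters. CAGATG or its reverse complement CATCTG, searched on both strands, was found in 5 of the 33 promoters listed for 23 of the genes (those of Cux2, Etv1, Lhx2, Mef2c and Neurod2) and in 17.2% of all 32851 promoters in the table, so the set holds it about as often as promoters at large. A match is only a run of letters and no binding was measured. No promoter entry was matched for Nrn1, Bhlhe22, Nptx1, Dkk3, Nov, Calb1, Otx1, Nxph4 and Ctgf.

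Reads counted on genes ran from 20971967 to 49700932 per library. No pair of libraries within a group was identical. One library stands apart. In the PFC at 28 days, saline library 4 exceeded all 11 other libraries in 12 of 12 marker genes of striatal projection neurons. Its Drd2, the D2 dopamine receptor, read 119 CPM (counts scaled to a fixed library total, by TMM within the table) against 2.21 to 7.36 in the others, and its Penk, the enkephalin precursor, 721 CPM against 20.4 to 46.5. The 12 markers summed to 3461 CPM there and to between 293 and 374 CPM elsewhere. The cortical genes went the other way, with 13 of 17 broadly cortical genes, 2 of 5 upper-layer genes and 4 of 10 deep-layer genes below all 11 other libraries, and a summed level of 4735 CPM against 5549 to 6266. Pcp4 at 227 CPM, Tle4 at 97.5, Calb1 at 130 and Cux1 at 74.8 were above all others in it. These 4 were also called higher in the NAc than in the PFC in the comparison of regions given later, as was Lmo3, which was not above all others in this library. The fold changes of the set in the PFC at 28 days are therefore given with and without this library.

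**Figure D1:**
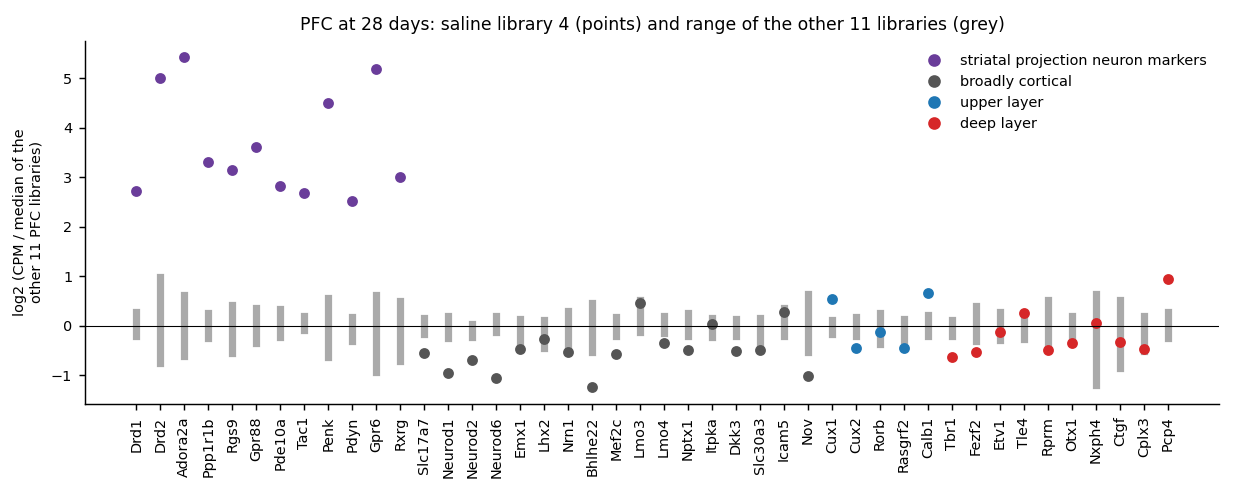
Level of saline library 4 in the PFC at 28 days relative to the median of the other 11 libraries, as log2 ratio, for 12 striatal marker genes and the 32 cortical genes, with the range of the other libraries in grey. All 12 striatal genes lie above the grey range, 19 cortical genes lie below it, and Cux1, Calb1, Tle4 and Pcp4 lie above it.

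Cocaine was first compared with saline in the PFC at 28 days, and none of the 32 genes passed. The comparison asks whether the cortical neuron program itself differed after a long abstinence, and edgeR's quasi-likelihood test called 0 of 16340 genes (0%) at a Benjamini-Hochberg adjusted p under 0.05. The smallest adjusted p of the 32 was 0.842, and the groups overlapped for every gene. At an unadjusted p under 0.05 there were 9 of 32 genes, 5 higher and 4 lower after cocaine, where 5.66% of all tested genes lay under that level (2.69% higher and 2.97% lower). By layer, of the 10 deep-layer genes 8 had a negative log2 fold change, with a median of -0.20, and 4 lay under that unadjusted level, all of them lower. Of the 5 upper-layer genes 3 were positive, with a median of 0.11, and of the 17 broadly cortical genes 12 were positive, with a median of 0.06. Without saline library 4 the broadly cortical genes turned to 7 positive and 10 negative with a median of -0.02, while 4 of 5 upper-layer genes were positive with a median of 0.11 and 9 of 10 deep-layer genes negative. The median of all tested genes was 0.0, or 0.003 without this library.

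Tle4 had the smallest p of the deep-layer genes. It encodes a Groucho-family corepressor that marks corticothalamic neurons of layer 6, and lies on chromosome 19 from 14522562 to 14672473 in mm9. Its lowest, median and highest CPM were 67.3, 71.2 and 85.6 after cocaine and 79.1, 84.9 and 97.5 after saline. Most cocaine libraries thus lay below all saline libraries, but the groups met between 79.1 and 85.6. The log2 fold change was -0.22 ± 0.067 (SE, edgeR adjusted p = 0.842), and without saline library 4, the highest, it was -0.19 ± 0.0645. In all 12 fits that each left out 1 library Tle4 remained under the unadjusted level of 0.05.

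Ctgf and Nxph4 mark the subplate-derived cells of layer 6b, Ctgf coding for a matricellular protein and Nxph4 for a neurexophilin, a secreted neurexin ligand. Ctgf had 27.8, 40.2 and 54.1 CPM after cocaine and 39.8, 51.3 and 71.6 after saline, a log2 fold change of -0.37 ± 0.161 (edgeR adjusted p = 0.842). Of the cocaine libraries 3 lay below the lowest saline library and the others lay among them. Nxph4, at the floor of these levels, had 1.94, 3.10 and 6.51 CPM after cocaine and 4.45, 4.82 and 6.92 after saline, with a difference of -0.51 ± 0.226 (edgeR adjusted p = 0.842). Without saline library 4 the values were -0.45 ± 0.152 for Ctgf and -0.54 ± 0.233 for Nxph4. Over the 12 fits that left out 1 library Ctgf was under the unadjusted level of 0.05 in 7 and Nxph4 in 5, with Nxph4 between -0.75 and -0.38.

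Pcp4 rests in part on the library that stands apart. Its CPM were 99.4, 115 and 120 after cocaine and 108, 129 and 227 after saline, where 227 is saline library 4 and the other saline libraries reached at most 144. The log2 fold change was -0.33 ± 0.139 (edgeR adjusted p = 0.842) and was only -0.15 ± 0.0672 without that library. Rprm, a p53-responsive cell cycle gene used as a layer 6 marker, went from -0.25 ± 0.149 with all libraries to -0.34 ± 0.124 without it, and Cplx3, a complexin of layer 6b, from -0.17 ± 0.128 to -0.25 ± 0.11, and each was under the unadjusted level of 0.05 in 1 of the 12 fits that left out 1 library, the one without saline library 4. Without saline library 4, 9 of 10 deep-layer genes were lower, 6 of them under the unadjusted level of 0.05, with a median of -0.19. Over the 12 fits that each left out 1 library, between 7 and 9 deep-layer genes were lower, between 2 and 6 were under that level, and the median ran from -0.25 to -0.16.

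The other 4 deep-layer genes lay closer to 0 with all libraries. Tbr1, the T-box factor of layer 6, had 126, 146 and 158 CPM after cocaine and 94.5, 144 and 156 after saline, where 94.5 is saline library 4, and a log2 fold change of 0.05 ± 0.099 that became -0.04 ± 0.0549 without it. Fezf2, the selector of subcerebral layer 5 neurons, had 46.5, 53.4 and 66.5 CPM after cocaine and 39.6, 58.8 and 75.4 after saline, a difference of -0.10 ± 0.131, or -0.19 ± 0.104 without saline library 4. For both genes the groups covered each other almost entirely. Etv1, an ETS factor of layer 5, lay at 0.03 ± 0.10, or 0.01 ± 0.102 without that library, and Otx1 at -0.03 ± 0.103, or -0.09 ± 0.0951. None of these 4 was under the unadjusted level of 0.05 in either fit, and Etv1 alone stayed positive without saline library 4.

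Rasgrf2 led the genes with higher means after cocaine. It lies on chromosome 13 from 92020005 to 92901611 in mm9 and marks neurons of layers 2 and 3. Its CPM were 175, 189 and 198 after cocaine and 133, 156 and 191 after saline, so that the cocaine libraries sat in the upper part of a range the saline libraries also reached. The log2 fold change was 0.23 ± 0.077 (edgeR adjusted p = 0.842), and 0.18 ± 0.0667 without saline library 4, its lowest library. Rasgrf2 was under the unadjusted level of 0.05 in all 12 fits that left out 1 library, and Cux2 in 6 of them. Cux2, a homeobox factor of upper-layer neurons, had 96.0, 103 and 111 CPM after cocaine and 71.1, 89.5 and 110 after saline, a difference of 0.19 ± 0.084 (edgeR adjusted p = 0.842), which was 0.13 ± 0.0669 without saline library 4. Rorb, of layer 4, had 14.5, 14.9 and 17.9 CPM after cocaine against 11.6, 14.5 and 16.3, a difference of 0.11 ± 0.089, or 0.09 ± 0.0931 without saline library 4. The remaining upper-layer genes had negative fold changes, Cux1 at -0.11 and Calb1 at -0.03. Both had been highest in saline library 4, and without it they lay at -0.01 and 0.11.

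Among the broadly cortical genes, Nrn1, which encodes the activity-regulated neuritin, had 117, 142 and 165 CPM after cocaine and 92.1, 115 and 142 after saline. The upper part of the cocaine group lay above all saline libraries, and the log2 fold change was 0.29 ± 0.117 (edgeR adjusted p = 0.842), or 0.24 ± 0.11 without saline library 4. Slc30a3, the vesicular zinc transporter ZnT3, lay at 0.20 ± 0.09 and Lhx2, a LIM homeobox factor, at 0.18 ± 0.085. They lay at 0.15 ± 0.0791 and 0.17 ± 0.0885 without saline library 4. Slc30a3 was under the unadjusted level of 0.05 in 5 and Lhx2 in 3 of the 12 fits that left out 1 library, and Nrn1 in 8. Slc17a7 had 1527, 1708 and 1757 CPM after cocaine and 1172, 1667 and 1895 after saline, and its difference of 0.04 ± 0.089 became -0.04 ± 0.0531 without the library at 1172. Negative fold changes were those of Lmo3 (-0.14), Icam5 (-0.09), Nptx1 (-0.04), Neurod1 (-0.04) and Nov (-0.03). In the same order these were -0.09, -0.06, -0.12, -0.17 and -0.16 without saline library 4. Without saline library 4, 8 of 32 genes were under the unadjusted level of 0.05 (Rasgrf2 and Nrn1 higher and 6 deep-layer genes lower), against 4.59% of all genes, and the smallest adjusted p was 0.967.

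**Figure D2:**
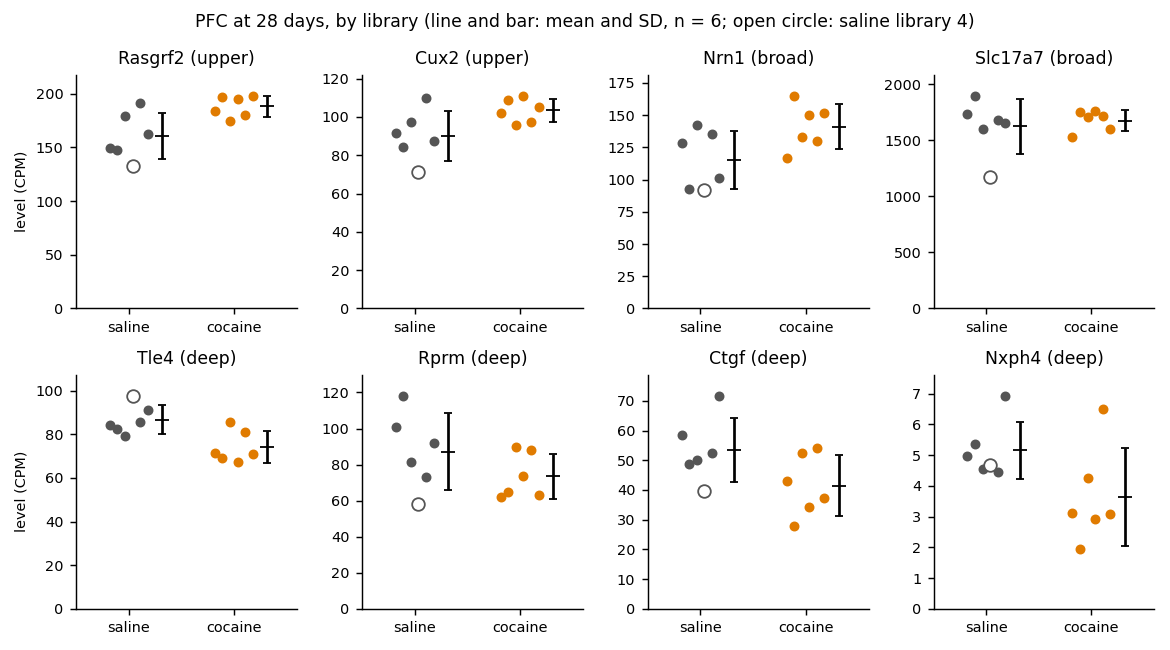
CPM of 8 genes in each PFC library at 28 days, by group, with the mean and SD (n = 6) and saline library 4 as an open circle. Rasgrf2, Cux2 and Nrn1 have higher means and Tle4, Rprm, Ctgf and Nxph4 lower means after cocaine, Slc17a7 shows little difference, and the groups overlap in all 8 genes.

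Values of other lists stand beside these. A second list of 32 cortical genes, written for this comparison and sharing none with the set, had 9 of 12 deep-layer genes lower at 28 days with a median of -0.12 and 3 under the unadjusted level. Without saline library 4, 11 of 12 were lower, with a median of -0.16 and 4 under it (Sulf2, Syt6, Bcl11b and Hs3st4). Its largest differences were those of Syt6, a synaptotagmin of layer 6, with 30, 33.5 and 43.6 CPM after cocaine and 37.5, 43.1 and 81.4 after saline (-0.49 ± 0.167, edgeR adjusted p = 0.842), and of Foxp2, a forkhead factor of layer 6 that spiny neurons also express (-0.49 ± 0.191, edgeR adjusted p = 0.842). These were -0.30 ± 0.106 and -0.29 ± 0.138 without saline library 4. The 8 oligodendrocyte markers were all lower after cocaine, with a median of -0.29, none under the unadjusted level, and summed levels of 3646 to 7688 CPM against 3880 to 9190. The oligodendrocyte median was -0.30 without saline library 4. Myelin is densest toward the white matter below layer 6, and the part of punch depth in the deep-layer values was not tested. The 12 striatal markers had a median of -1.30 with saline library 4 and -0.01 without it, with 8 and 0 genes under that level.

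At 1 day of abstinence cocaine was compared with saline in the PFC on RPKM rather than counts. limma on log2(RPKM + 0.1) called 1 of 14427 genes (0.00693%) and none of the 32, and none was under an unadjusted p of 0.05, against 4.15% of all genes. The log2 fold changes ran from -0.17 to 0.18 with a median of 0.01 (all genes -0.011), and the smallest adjusted p was 0.918. The deep-layer median was 0.06 and the upper-layer median 0.01, with 6 of 10 and 4 of 5 genes positive. Neurod2 had the smallest p of the set, with 14.1, 15.7 and 17.5 RPKM after cocaine and 13.9, 14.9 and 16.3 after saline (0.08 ± 0.063). Tbr1 followed, with 42.7, 43.9 and 47.3 RPKM against 36.2, 42.0 and 47.0 (0.09 ± 0.073). Pcp4 had 218, 247 and 305 RPKM against 164, 224 and 276 (0.14 ± 0.116). All 3 pairs of groups overlapped widely.

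On the other side at 1 day stood Icam5, the telencephalic adhesion molecule telencephalin, with 15.1, 20.9 and 25.7 RPKM after cocaine and 16.0, 22.8 and 30.3 after saline (-0.17 ± 0.153). Slc17a7 had 338, 398 and 442 RPKM against 346, 421 and 449 (-0.06 ± 0.077). Itpka, an inositol trisphosphate kinase of dendritic spines, had 39.1, 47.8 and 50 RPKM against 39.8, 49.2 and 57.1 (-0.07 ± 0.086). None of these groups was set apart from its control. The layer factors Cux2 (5.60, 7.53 and 8.13 RPKM against 6.25, 7.74 and 9.62, -0.08 ± 0.113), Rorb (0.10 ± 0.098) and Fezf2 (-0.08 ± 0.124) differed by less than their standard errors or barely more. Rorb had 1.76, 2.13 and 2.55 RPKM after cocaine and 1.61, 2.02 and 2.39 after saline, and Fezf2 13.0, 16.9 and 20.8 against 13.4, 19.0 and 20.8. Of the 10 deep-layer genes, saline replicate 6 had the lowest level in 6 (Etv1, Tle4, Rprm, Nxph4, Ctgf and Cplx3), with Ctgf at 12.0 RPKM and Nxph4 at 1.09. In the second list of cortical genes, Otof (-0.21 ± 0.185) and Kcnh5 (0.18 ± 0.209) differed most, both at a limma adjusted p of 0.918. The 8 oligodendrocyte markers were all positive at 1 day, with a median of 0.23 and none under the unadjusted level, and 3 of 8 endothelial markers were lower under it.

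**Figure D3:**
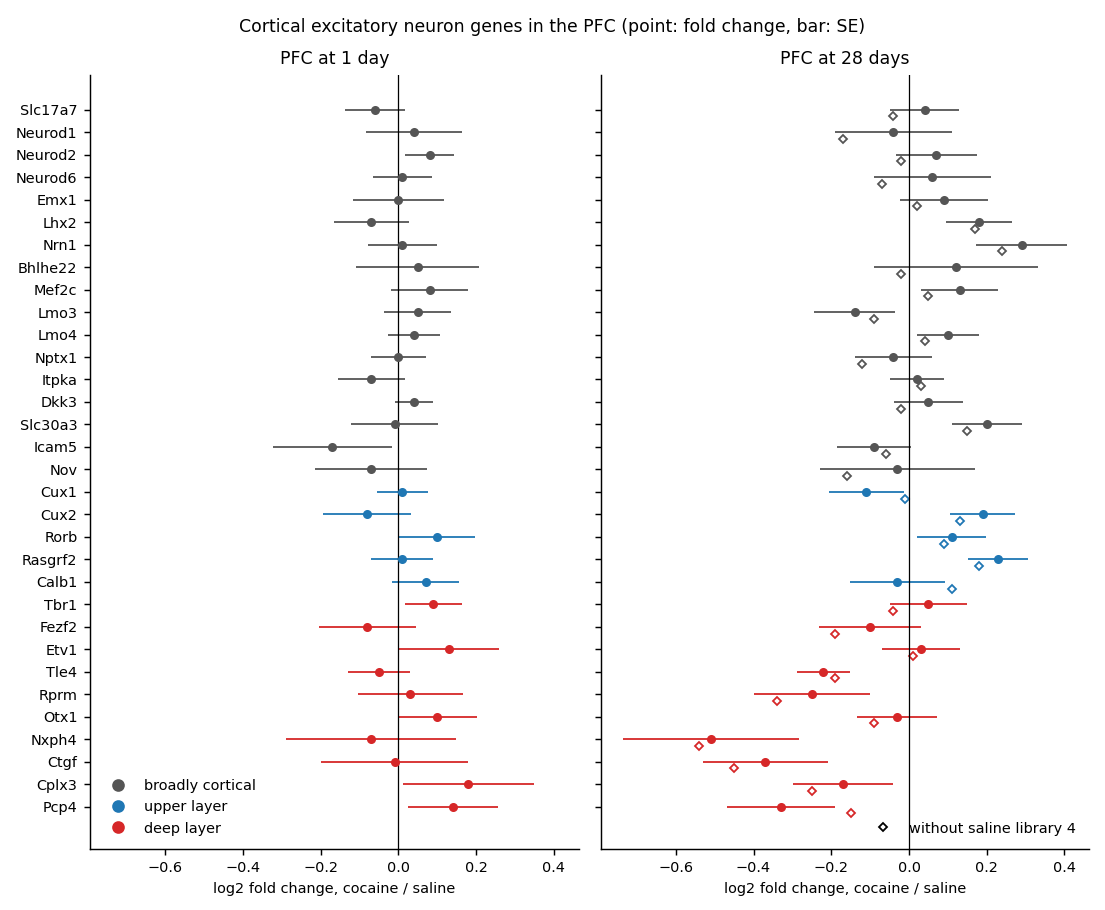
Log2 fold change of cocaine against saline ± SE for the 32 genes in the PFC at 1 day (limma, n = 6 per group) and 28 days (edgeR, n = 6 per group), colored by layer, with open diamonds for the fit at 28 days without saline library 4. The values at 1 day lie between -0.17 and 0.18, while at 28 days 8 of 10 deep-layer genes lie below 0 and Rasgrf2, Cux2 and Nrn1 above it.

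Whether the cocaine effect in the PFC differed between the time points was tested by the interaction of treatment and time in limma over all 24 libraries. It called 2 of 14566 genes (0.0137%) and none of the 32, whose smallest adjusted p was 0.999. All 10 deep-layer genes had a negative term, with a median of -0.22, and 1 of them was under an unadjusted p of 0.05, against 4.43% of all genes. That gene was Pcp4, at -0.44 ± 0.189, or -0.30 without saline library 4. The upper-layer genes had a median of 0.00 and the broadly cortical genes of 0.08. Without saline library 4 all 10 deep-layer terms stayed negative, while most broadly cortical terms fell. Slc17a7 went from 0.11 to 0.02 and Neurod6 from 0.10 to -0.09, whereas Lmo3 rose from -0.18 to -0.12 and Icam5 from 0.07 to 0.10. A difference between 1 and 28 days is thus not shown for any single gene, although the deep-layer values lie on 1 side. Some other lists did so too. All 8 oligodendrocyte markers were negative (median -0.47) and all 8 astrocyte markers positive (median 0.11), none of them under the unadjusted level. The 10 interneuron markers split into 5 and 5. Genes of a list share the same libraries, so their signs are not independent.

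The genes were next compared between regions in the saline mice at 28 days, which shows how far each is a cortical gene in these punches. In 1 edgeR model with region as the group, 29 of 32 genes were called between PFC and NAc (40.7% of all 17181 genes), 24 higher in PFC (20.7%) and 5 lower (20.0%). Between PFC and VTA, 28 were called (57.8%), 26 higher in PFC (28.1%) and 2 lower (29.8%). Region and table cannot be told apart, since each region was deposited as its own table. The labels do not say whether libraries of different regions come from the same mice, and the model took all libraries as independent. The median log2 difference was 2.06 to NAc and 2.52 to VTA, where all genes had -0.019 and -0.022. The broadly cortical genes stood apart most, with medians of 2.80 and 3.41, the deep-layer genes had 2.06 and 1.00, and the upper-layer genes only 0.18 and 0.20.

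Fezf2 differed most from the NAc, with 60.8 CPM ± 13.4 in the PFC (SD, n = 6), 3.27 ± 1.79 in the NAc (n = 6) and 0.24 ± 0.0848 in the VTA (n = 5), which made log2 differences of 4.23 ± 0.276 and 7.98 ± 0.392 (SE). Neurod6 followed with 95.8 CPM in the PFC, 5.48 in the NAc and 4.90 in the VTA. Tbr1 had 144 CPM in the PFC, 16.1 in the NAc and 0.643 in the VTA, and Emx1, a homeobox factor of the dorsal telencephalon, 14.8, 2.13 and 0.10. Fezf2, Tbr1 and Emx1 were nearly absent from the VTA. Slc17a7 went from 1693 CPM ± 260 in the PFC to 234 ± 184 in the NAc and 90.6 ± 77 in the VTA, with an SD close to the mean outside the cortex.

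Several genes of the set were not cortical in this sense. Pcp4 had 149 CPM in the PFC and 353 in the NAc (-1.24 ± 0.175), Calb1 91.2 and 228 (-1.32 ± 0.345), Lmo3 86.2 and 170 (-0.98 ± 0.202), Cux1 57.5 and 94.3 (-0.71 ± 0.104), and Tle4 90.3 and 111 (-0.29 ± 0.0889). All 5 were called lower in the PFC than in the NAc. Calb1 is also known from spiny neurons. Itpka, Icam5 and Rorb were not called between PFC and NAc (adjusted p 0.0598, 0.059 and 0.264), yet Itpka had 211 CPM in the PFC and 3.83 in the VTA (5.79 ± 0.142) and Icam5 244 and 7.58. Both are telencephalic genes, shared by cortex and striatum. Nxph4 was higher in the VTA, at 31.6 CPM against 5.37 in the PFC (-2.55 ± 0.295), as was Cux1 at 72.4 CPM (-0.33 ± 0.108). Rorb, Rasgrf2, Calb1 and Ctgf were not called between PFC and VTA. Without PFC saline library 4, Icam5 was also called lower in PFC than in NAc (-0.37, adjusted p = 0.0477), and Pcp4 was no longer called between PFC and VTA (0.36, adjusted p = 0.054), both in edgeR.

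**Figure D4:**
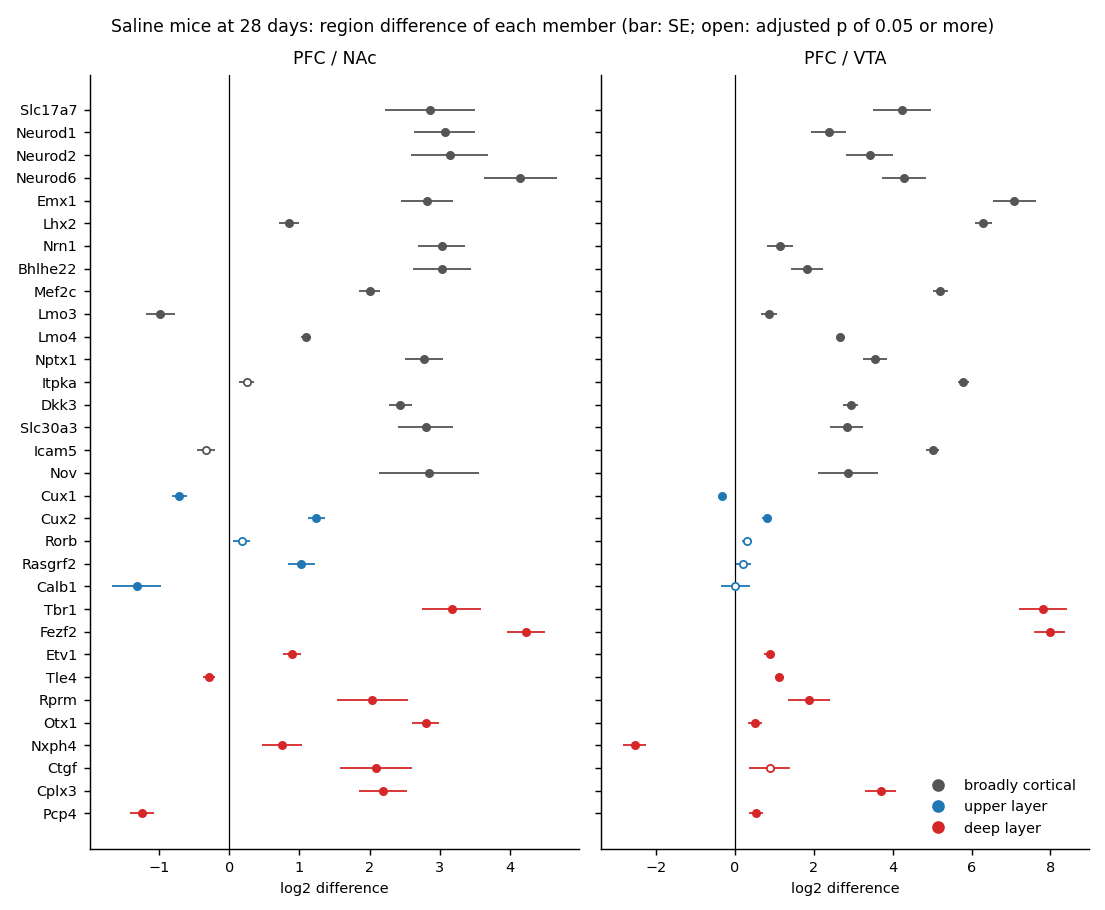
Log2 difference ± SE of each gene between PFC and NAc and between PFC and VTA in saline mice at 28 days (edgeR, n = 6 PFC, 6 NAc and 5 VTA libraries), with open symbols for genes not called. Fezf2, Neurod6 and Tbr1 lie far to the PFC side against the NAc, while Pcp4, Calb1, Lmo3, Cux1 and Tle4 lie on the NAc side and Nxph4 on the VTA side.

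In the NAc, the levels of the cortical genes varied far more among libraries than between treatments. The highest library exceeded the lowest at least 4-fold in 15 of 32 genes at both time points, and in the VTA in 14 of 32, but in 0 of 32 in the PFC, where the median ratio was 1.56 at 1 day and 1.63 at 28 days. To read this as a share of cortical tissue, each library was set against the mean of the saline PFC libraries of the same time point, after scaling all 3 regions together. Slc17a7 in the NAc then ran from 0.472% to 59.8% of the PFC level at 1 day and from 0.609% to 32% at 28 days. Tbr1 ran from 1.52% to 54.3% and from 0.975% to 26.8%, and Neurod2 from 0.823% to 36.5% and from 0.506% to 29.5%. Neurod6 reached 16.2% and 16.9% and Fezf2 only 7.71% and 10.8%, so the genes do not give 1 common share. Pcp4 stood between 132% and 316% of the PFC level and Itpka between 58.1% and 101% over both time points. For these genes the level in the NAc says little about cortex.

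The same libraries were high for many of the genes. At 1 day, cocaine library 6 with 740 CPM, saline library 2 and saline library 6 were highest in Slc17a7. They were also the highest 3 for Neurod1, Neurod2, Nrn1, Lmo3, Nptx1, Slc30a3, Otx1 and Cplx3, that is for 8 of the 31 other genes, and 1 of them was the highest for 20 of 31. At 28 days, cocaine library 3 with 543 CPM, saline library 1 and saline library 6 were highest in Slc17a7 and the same 3 were highest for 10 of the 31 other genes, Neurod6 and Tbr1 among them. In the PFC the 3 highest libraries of Slc17a7 were shared by 1 gene at 1 day and 0 at 28 days. However, 1 of those 3 was the highest for 10 of 31 genes at 1 day and for 17 of 31 at 28 days. By that count the NAc, with 20 of 31 at both time points, stood little above the PFC at 28 days. The summed striatal markers were 4539, 5286 and 5336 CPM in the 3 libraries at 1 day, where the groups ran from 4539 to 7590 after cocaine and from 5286 to 6749 after saline. Both groups thus held libraries high in cortical genes, and the lowest striatal sum of each group at 1 day was in one of these libraries.

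**Figure D5:**
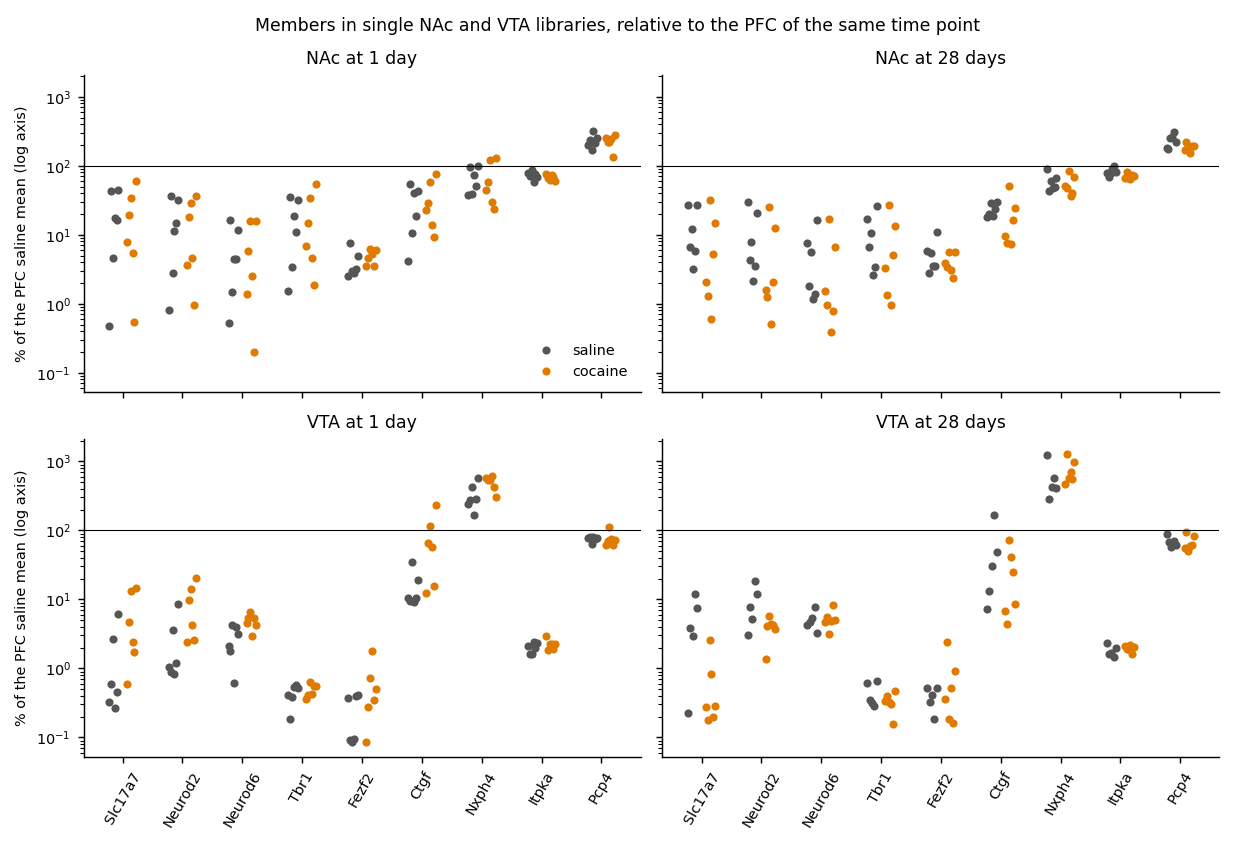
Level of 9 genes in each NAc and VTA library as a percent of the mean of the saline PFC libraries of the same time point, on a log axis. Slc17a7 spreads from 0.472% to 59.8% in the NAc at 1 day, Itpka and Pcp4 stay within narrow bands there, and Nxph4 lies above the PFC level in every VTA library.

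Between cocaine and saline in the NAc, edgeR called 2 of 15878 genes (0.0126%) at 1 day and 0 of 16295 (0%) at 28 days, and none of the cortical genes, of which 31 and 32 were tested (Emx1 was too low at 1 day). At 1 day none was under an unadjusted p of 0.05, against 4.01% of all genes. Slc17a7 had 6.81, 169 and 740 CPM after cocaine and 5.81, 208 and 554 after saline, and with this spread its log2 fold change of 0.01 had an SE of 0.923. Neurod6 had 0.252, 5.25 and 20.1 CPM against 0.652, 5.53 and 20.3 (0.12 ± 0.818), and Tbr1 3.24, 18.6 and 92.3 against 2.58, 25.0 and 60.8 (0.21 ± 0.778). A difference of less than several fold in these 3 genes was not detectable here. Genes with an even level across libraries were measured more closely. Dkk3 had 103, 123 and 144 CPM after cocaine and 76.6, 112 and 139 after saline (0.15 ± 0.126), and Lmo4 93.6, 124 and 134 against 108, 125 and 162 (-0.12 ± 0.106). Fezf2 (1.46, 2.10 and 2.62 CPM against 1.08, 1.32 and 3.26, 0.28 ± 0.273) and Cux2 (21.5, 25.8 and 32.2 CPM against 24.2, 29.4 and 30.4, -0.10 ± 0.092) completed the genes with the smallest p, and all 4 pairs of groups overlapped.

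At 28 days in the NAc, 27 of 32 genes had a negative log2 fold change, with a median of -0.18 where all genes had 0.005, and 3 were under an unadjusted p of 0.05, against 6.76% of all genes. Otx1 had 0.297, 0.584 and 0.956 CPM after cocaine and 0.670, 1.01 and 1.65 after saline (-0.90 ± 0.282, edgeR adjusted p = 0.592). Itpka, at an even level in the NAc, had 137, 147 and 169 CPM against 145, 168 and 214 (-0.24 ± 0.084, edgeR adjusted p = 0.652). Pcp4 was the third, at -0.32 ± 0.128 with means of 279 and 349 CPM. The groups overlapped for each. Beside this, 10 of 12 striatal markers were negative with a median of -0.10, as were 8 of 8 endothelial markers (median -0.16, 3 under the unadjusted level) and 8 of 8 oligodendrocyte markers (median -0.08, 2 under it), and their part in the cortical values was not tested. Slc17a7 had 10.4, 62.1 and 543 CPM after cocaine and 54.5, 161 and 457 after saline (-0.54 ± 0.801), Neurod6 0.372, 1.19 and 16.2 against 1.14, 3.54 and 15.7 (-0.29 ± 0.818), and Tbr1 1.41, 6.10 and 38.6 against 3.82, 12.6 and 37.0 (-0.37 ± 0.707). The 2 smallest p on the positive side were those of Tle4, with 105, 114 and 130 CPM against 93.8, 109 and 124 (0.09 ± 0.067), and Cux2, with 32.1, 42.3 and 57.2 against 28.8, 37.5 and 51.0 (0.13 ± 0.145). The interaction with time called 3 of 16612 genes (0.0181%) in the NAc and none of the 32, and none was under an unadjusted p of 0.05 (5.27% of all genes).

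In the VTA several transcription factors of the cortex were close to absent. At 1 day Tbr1 lay between 0.0847 and 0.297 RPKM in all 12 libraries, with Neurod1, Emx1, Lhx2, Fezf2 and Cplx3 too low to be tested as well. Tbr1 ran from 0.182% to 0.632% of the PFC level at 1 day and from 0.154% to 0.649% at 28 days. Slc17a7, however, ran from 0.266% to 14.8% and from 0.179% to 11.9%. The 1-day library highest in Slc17a7, cocaine library 6 at 14.8%, had 20.6% for Neurod2 and 0.564% for Tbr1. At 28 days saline library 4, at 11.9% for Slc17a7, had 18.6% for Neurod2 and 0.282% for Tbr1. The source of Slc17a7 in these libraries was not tested. Nxph4 lay between 165% and 1299% of the PFC level over both time points, Ctgf between 4.44% and 237% and Nov, a secreted matricellular protein related to Ctgf, between 0.907% and 142%.

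Cocaine was compared with saline in the VTA at 1 day by limma, which called 28 of 15042 genes (0.186%) and none of the 26 cortical genes tested. At an unadjusted p under 0.05 there were 10 of 26, 8 higher and 2 lower, where 15.4% of all genes lay under that level. Lmo3, a LIM-only cofactor on chromosome 6 from 138311439 to 138530489 in mm9, came nearest to the threshold. It had 9.49, 13.4 and 19.3 RPKM after cocaine and 18.5, 25.3 and 29.5 after saline, so that the groups met only between 18.5 and 19.3. The log2 fold change was -0.86 ± 0.157 (limma adjusted p = 0.0661), and it ran from -0.97 to -0.76 in the 12 fits that left out 1 library. Lmo3 passed without cocaine replicate 1 (adjusted p = 0.0323) and with edgeR on the reads recovered from RPKM (-0.90, adjusted p = 0.0387). Rasgrf2 had 26.7, 32.6 and 36.8 RPKM after cocaine and 33.3, 41.5 and 47.5 after saline (-0.32 ± 0.113, limma adjusted p = 0.227).

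The higher genes of the VTA at 1 day were uneven among libraries, apart from Mef2c. Mef2c had 3.09, 3.84 and 4.35 RPKM after cocaine and 2.47, 2.95 and 3.41 after saline (0.38 ± 0.10, limma adjusted p = 0.129), with a short overlap. Ctgf had 3.06, 15.4 and 60.3 RPKM against 2.15, 2.48 and 8.65 (1.97 ± 0.677, limma adjusted p = 0.223), and Slc17a7 2.75, 16.8 and 70.5 against 1.18, 2.33 and 27.7 (2.11 ± 0.944, limma adjusted p = 0.311). Slc17a7 kept an unadjusted p under 0.05 in 4 of the 12 fits that left out 1 library. Neurod6 had 1.89, 3.13 and 4.12 RPKM against 0.373, 1.63 and 2.77 (1.04 ± 0.379, limma adjusted p = 0.24), and Neurod2, Nov, Rprm and Nxph4 also had higher means. Neurod2 kept an unadjusted p under 0.05 in 9 of these 12 fits and Nov in 10. Mef2c, Ctgf, Neurod6, Rprm and Nxph4 kept it in all 12. In the second cortical list 14 of 31 tested genes were higher under the unadjusted level of 0.05 and 2 lower. Among all genes these shares were 11.1% and 4.29%. Of the 31, limma called 3, all higher, where 0.16% of all genes were called higher. By limma these were Camk2a (0.59 ± 0.0905, adjusted p = 0.0328), Chrm1 (0.66 ± 0.115, adjusted p = 0.0479) and Kcnh5 (0.63 ± 0.0898, adjusted p = 0.0301), which are named here because they passed.

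Markers of other cell types differed in the same libraries. The midbrain dopamine neuron markers were lower after cocaine at 1 day in 9 of 9 tested genes, 6 of them under the unadjusted level, with a median of -0.58 and summed levels of 662 to 1562 RPKM against 1101 to 2527. Of 8 microglia markers 7 were lower under it. All 8 endothelial markers were higher, with a median of 0.29 and 1 under that level. Cocaine library 6, the highest in Ctgf (60.3 RPKM) and Nov (66.6 RPKM), also had the highest endothelial sum, 199 RPKM. The placement of the punch and the treatment were not separated. The part of dopamine neuron or endothelial content in the values of Lmo3, Ctgf, Nov and the other genes was not tested.

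In the VTA at 28 days edgeR called 0 of 16937 genes (0%) and none of the 31 cortical genes tested, with 4 of 31 under an unadjusted p of 0.05 against 11.5% of all genes. Slc17a7 had 3.16, 4.94 and 47.1 CPM after cocaine and 4.14, 71.1 and 215 after saline (-2.89 ± 0.906, edgeR adjusted p = 0.39), opposite in sign to 1 day. Its saline libraries ranged over the cocaine libraries and far above them, and the difference ran from -3.94 to -2.34 in the 11 fits that left out 1 library. Neurod2 had 1.14, 3.53 and 5.00 CPM against 2.71, 6.76 and 16.0 (-1.27 ± 0.434, edgeR adjusted p = 0.394). The saline library with 215 CPM of Slc17a7 had the lowest dopamine marker sum, 1580 CPM, and the saline library with 71.1 CPM the highest, 7021. The dopamine sums ran from 2167 to 6387 CPM after cocaine, and from 1580 to 7021 after saline. By gene, 9 of 10 dopamine markers were positive (median 0.13). All 8 oligodendrocyte markers (median -0.41, 3 under the unadjusted level), 8 microglia markers (-0.36, 2 under it) and 8 endothelial markers (-0.46, 4 under it) were negative. The saline library with 215 CPM of Slc17a7 was also the highest in Ctgf (100 CPM), Nov (58.6 CPM) and the endothelial sum (649 CPM). The part of tissue content in the cortical values was not tested.

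On the positive side at 28 days in the VTA, Nptx1, the neuronal pentraxin that gathers AMPA receptors, had 58.1, 85.2 and 101 CPM after cocaine and 32.9, 58.4 and 73.7 after saline (0.61 ± 0.203, edgeR adjusted p = 0.394). Rasgrf2 had 165, 212 and 246 CPM against 102, 166 and 229 (0.40 ± 0.185, edgeR adjusted p = 0.435), where at 1 day it had been lower. Neurod6 had 3.21, 5.09 and 8.38 CPM against 3.32, 4.86 and 7.83 (0.03 ± 0.247), and Tbr1 0.235, 0.510 and 0.714 against 0.433, 0.540 and 0.989 (-0.45 ± 0.31), all overlapping. The interaction of treatment and time in the VTA, by limma, called 0 of 15148 genes (0%) and had 8 of 27 cortical genes under an unadjusted p of 0.05, against 13.3% of all genes. Rasgrf2 (0.78 ± 0.219, adjusted p = 0.235), Lmo3 (1.03 ± 0.315, adjusted p = 0.253) and Nptx1 (0.80 ± 0.247, adjusted p = 0.253) had positive terms. Slc17a7 (-4.89 ± 1.43, adjusted p = 0.241), Neurod2, Neurod6, Mef2c and Ctgf had negative ones, and no gene of the set passed.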

How the data were processed

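Libraries were grouped by their labels and table columns by their names. In the tables at 28 days a column name gives the group but no labelled sample, so library numbers there only count columns. The deposited tables also hold 30 columns of libraries from no group analysed here and the authors' own fold changes and p-values, and neither were used. The authors aligned reads to mm9 (STAR 2.4.1d, per the labels) and deposited raw counts per gene for the NAc at both time points and for the PFC and VTA at 28 days. For the PFC and VTA at 1 day the authors deposited RPKM, divided by gene length and library reads. The strand used in counting is not given in the sources used here, so genes that overlap another gene (among them Neurod1, Cux2, Pcp4, Lmo3, Icam5, Cux1, Lhx2 and Ctgf) are uncertain. Gene positions are those of the GENCODE annotation of mm9.

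Counts were tested with edgeR 4.0.16 (R 4.3.3), with filterByExpr (minimum count 10), TMM and glmQLFTest within each table, and SEs taken from the F statistic. RPKM was tested with limma 3.58.1 after adding 0.1 and taking log2, for genes whose mean reached 0.5 RPKM, a scale that understates changes of low genes. Benjamini-Hochberg adjustment ran over all genes tested, and an adjusted p under 0.05 is called a pass, while the unadjusted level of 0.05 is given for counts only. For percents of the PFC level, reads were recovered from RPKM (23353 of 23353 PFC genes and 23806 of 23806 VTA genes whole within 0.01 reads) and the 3 regions of a time point were scaled together by TMM. For the interactions in the PFC and VTA, counts at 28 days were turned into RPKM with the gene lengths the tables at 1 day imply.

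The genes, their layers, the marker lists and the tests were chosen with earlier results of these data known. All 32 genes enter the counts and medians wherever they were tested, but not every gene is given with its own values. Those with full values are the genes that passed or, where none did, the 3 (PFC) or 2 (NAc and VTA) with the smallest p in each direction, with Slc17a7, Cux2, Rorb, Fezf2 and Tbr1 always given in the PFC and Slc17a7, Neurod6 and Tbr1 elsewhere, and the 2 largest changes of the second cortical list in the PFC. Other genes given with values, among them Rprm, Nxph4, Cplx3, Slc30a3 and Lhx2, were chosen after their values were seen. Alternatives were DESeq2 1.42.0, its size factors, other filters, a pseudocount of 1, edgeR on recovered reads, median-ratio scaling, the replicate block and leaving out each library. The tests were checked on simulated data, and figures were drawn with matplotlib 3.10.9.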

Additional observations from a re-analysis of the deposited data

Results flagged for a closer look

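Of 100 groups of 5 or 6 libraries checked for a single value far from the rest, 8 were picked out. A chance rate of about 1 in 20 would need independent groups. These groups share libraries, and 3 of the 8 come from 1 library, so the count cannot be read against that rate. In the PFC at 28 days, saline library 4 was picked out 3 times, for the 3461 CPM of its summed striatal markers (293 to 367 in the other saline libraries), for Pcp4 at 227 CPM (108 to 144) and for Tbr1 at 94.5 CPM (140 to 156). In the same table Pcp4 was low in cocaine library 1 at 99.4 CPM (113 to 120 in the others) and Rorb was high in cocaine library 6 at 17.9 CPM (14.5 to 15). At 1 day in the PFC, Itpka was low in cocaine replicate 5 at 39.1 RPKM (46.1 to 50). In the VTA, Ctgf was high in saline replicate 3 at 1 day, at 8.65 RPKM (2.15 to 4.57), and Slc17a7 in cocaine library 3 at 28 days, at 47.1 CPM (3.16 to 14.8).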

How the results depend on the processing

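The number of genes of the set that passed stayed at 0 in the PFC and NAc at both time points, in the VTA at 28 days and in the 3 interactions under every alternative run. In the VTA at 1 day it rose from 0 to 1 (Lmo3) with edgeR on recovered reads, and ran from 0 to 1 over the fits that left out 1 library, with 1 only without cocaine replicate 1. Between regions it was 28 to 31 (PFC against NAc) and 27 to 29 (PFC against VTA) over the fits that left out 1 library. The direction of a fold change turned in some of these fits. It ran from -0.04 to 0.09 for Slc17a7 and from -0.04 to 0.09 for Tbr1 in the PFC at 28 days, from -0.65 to 0.38 for Slc17a7, -0.31 to 0.64 for Neurod6 and -0.43 to 0.58 for Tbr1 in the NAc at 1 day, from -1.33 to 0.39 for Neurod6 and -1.15 to 0.07 for Tbr1 in the NAc at 28 days, and from -0.15 to 0.23 for Neurod6 in the VTA at 28 days. The causes were not tested.

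With the replicate number as a block, 0 genes of the set passed at 1 day in the PFC, NAc and VTA, and in the NAc Slc17a7 turned to -0.04 and Neurod6 to -0.11. Whether the numbers pair the libraries is not settled. Same-numbered libraries deviated from their group means with correlations of -0.223 to 0.0308 in the PFC, -0.47 to 0.601 in the NAc and -0.246 to 0.435 in the VTA. In these regions 0, 4 and 4 of 12 libraries correlated best with their own number. Number 6 in the NAc (0.601) and numbers 5 and 6 in the VTA (0.421 and 0.435) were best matches in both directions. At 28 days no paired analysis was possible because the columns carry no replicate number of a labelled sample. In the PFC the SEs at 28 days reached 0.226, and differences of 0.23 (Rasgrf2), 0.29 (Nrn1) and -0.51 (Nxph4) did not pass. In the NAc and VTA the uneven cortical genes had SEs up to 0.966 within a table and up to 1.43 in the interactions.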
